A study of Homo sapiens with 60 samples.

Results

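The genes described here copy the genome: 50 DNA replication and S phase genes, chosen by symbol from the 60675 genes of the count table. They were chosen as genes of origin licensing, the replication fork, nucleotide supply and S phase entry, E2F targets among them, with earlier results of these data known. Messenger RNA was sequenced from HT29, an established human colorectal adenocarcinoma line, after 24 h with the vehicle (3 libraries) or with 1 of 8 herbal extracts at a high, a medium or a low dose. Yijin-tang (3 libraries per dose) and Soshiho-tang (2 per dose, labelled replicates 2 and 3) were water extracts of herbal mixtures. Schisandrae Fructus, Zizyphi Semen, Longan Arillus and Liriopis seu Ophiopogonis Tuber (3 per dose) and Polygalae Radix and Aucklandiae Radix (1 per dose) were ethanol extracts of single herbs. The doses were 500, 100 and 20 µg/mL, except 380, 76 and 15.2 µg/mL for Polygalae Radix and 370, 74 and 14.8 µg/mL for Aucklandiae Radix, which follow from each extract's IC20 per the series text. The vehicle was 0.1% DMSO in the sample labels and 2% DMSO in the series text, and the DMSO content of the extract cultures was not found.

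Eukaryotic replication starts at origins, where ORC, CDC6 and CDT1 load the MCM2-7 helicase during G1. In S phase MCM10, CDC45 and the GINS complex turn the loaded helicase into a moving fork. DNA polymerase alpha with its primase starts each strand, polymerases delta and epsilon extend it, the clamp PCNA keeps them on the template and the RFC complex loads the clamp. Cyclin E and the E2F transcription factors drive cells into S phase, and many replication genes carry E2F sites in their promoters. In bulk RNA, fewer cells in S phase and less RNA of a gene per cell cannot be told apart.

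E2F letters are found in part of the members' promoters. Since E2F targets were 1 of the classes the members were chosen by, the choice partly sets that share, and it is given as a description. RefSeq promoters on GRCh38.p14 matched 43 of the 50 members, and the 250 bases before each transcription start were searched on both strands, overlapping matches included, for the E2F letters TTTGGCGC, TTTGCCGC, TTTCGCGC and TTTCCCGC. At least 1 of them was found in 16 of the 43 members (37.2%), in 2.79% of all 27305 promoters and in 5.0% of the promoters of 20 G2 and mitosis genes. A CCAAT box, searched as CCAAT, was found in 60.5% of the members and in 33.0% of all promoters. The CHR letters TTTGAA and TTCGAA, known from mitotic gene promoters, were found in 6.98% of the members, 14.6% of all promoters and 55.0% of the G2 and mitosis genes. A match is a run of letters and not a measured binding site. The stretches below come from members that recur in the results, and MCM6 is shown for its 4 matches, in 2 overlapping pairs. Each is written 5′ to 3′ along the gene's strand, with the matching letters in capitals.
ZNF367, chr9:96418371-96418425, minus strand: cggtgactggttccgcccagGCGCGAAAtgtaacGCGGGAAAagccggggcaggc
MCM6, chr2:135876502-135876615, minus strand: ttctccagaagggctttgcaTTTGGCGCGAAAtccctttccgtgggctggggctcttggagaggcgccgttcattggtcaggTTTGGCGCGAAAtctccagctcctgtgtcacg
MCM3, chr6:52284889-52284936, minus strand: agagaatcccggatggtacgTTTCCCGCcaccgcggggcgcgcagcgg
POLA1, chrX:24693761-24693808, plus strand: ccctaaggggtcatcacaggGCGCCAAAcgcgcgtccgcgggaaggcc
PCNA, chr20:5126654-5126701, minus strand: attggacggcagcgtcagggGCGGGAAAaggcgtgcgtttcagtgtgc
MCM7, chr7:100101398-100101416, minus strand, 1 of its 2 matches: gggggcgacgTTTCGCGCc
UHRF1, chr19:4909477-4909500, plus strand: ccgagttttcGCGGGAAAaaaatc
RFC3, chr13:33818084-33818111, plus strand: tttggagctcGCGGGAAAacttgtctct
POLE, chr12:132687343-132687370, minus strand: gggtgggagcGCGCCAAAtttctcccct

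Library totals ran from 18161717 to 35128954 expected counts, and 16835 genes, all 50 members among them, passed the filter on low counts. The HT29 label was checked against 10 colon epithelium markers, all detected in every library. EPCAM ran from 364 to 830 CPM (the count scaled to a common library total), but CDX2 only from 1.185 to 5.777 CPM. The 6 fibroblast markers were low, though COL1A1, at 0.887 to 3.22 CPM, overlapped CDX2. LUM ran from 0.352 to 1.45 CPM. COL1A2, COL3A1, DCN and PDGFRB, each at 0 in at least 1 library, reached at most 0.203, 0.112, 0.0481 and 0.135 CPM. Library names begin with C1 for the vehicle and with 8, 9, 10 or 11 for the extracts, and no extract shares its set with the vehicle, so extract and library set cannot be told apart in any comparison with the vehicle. High against low doses, and Yijin-tang against Soshiho-tang, are comparisons within a set. All 18 comparisons of extracts with the vehicle share the same 3 vehicle libraries, so they are not independent of each other. The labels do not say that replicates were separate cultures, and p-values then measure only the spread between these libraries. Replicate 2 of the Yijin-tang low dose stood apart, with 11.4% of its counts in ribosomal protein genes against 3.69% to 5.84% elsewhere, and the fit leaves it out. Replicate 3 of the Soshiho-tang high dose stood apart in blood cell markers. Of 9 leukocyte and haemoglobin markers 8 (all but LYZ) had their highest level there. Summed over those 8, picked for that peak, it held 35.1 CPM against 2.79 to 5.48 CPM in the other 59 libraries. The source of these transcripts was not tested. It stays in the fit, and the calls at that dose that are lost without it are named below.

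In the vehicle libraries the members spanned a wide range of levels per exon length. PCNA, the sliding clamp, stood highest with 134 CPM per kb, followed by thymidine kinase TK1 with 87.0, the helicase subunit MCM7 with 84.6 and the flap nuclease FEN1 with 62.2 CPM per kb. The GINS complex subunit GINS4 stood lowest with 1.72 CPM per kb, below cyclin E2 (CCNE2) with 2.62 CPM per kb. The length is the union of all annotated exons of a gene, which can exceed the transcript that is expressed and then understates the level per length. Within the MCM2-7 ring the values were 84.6 for MCM7, 55.6 for MCM3, 49.8 for MCM4, 45.7 for MCM2, 28.1 for MCM6 and 15.1 CPM per kb for MCM5. MCM5 and MCM6 had like CPM, 111 and 116, over unions of 7338 and 4118 bases. Together the 50 members took 0.496% of the counts in the median library.

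**Figure D1:**
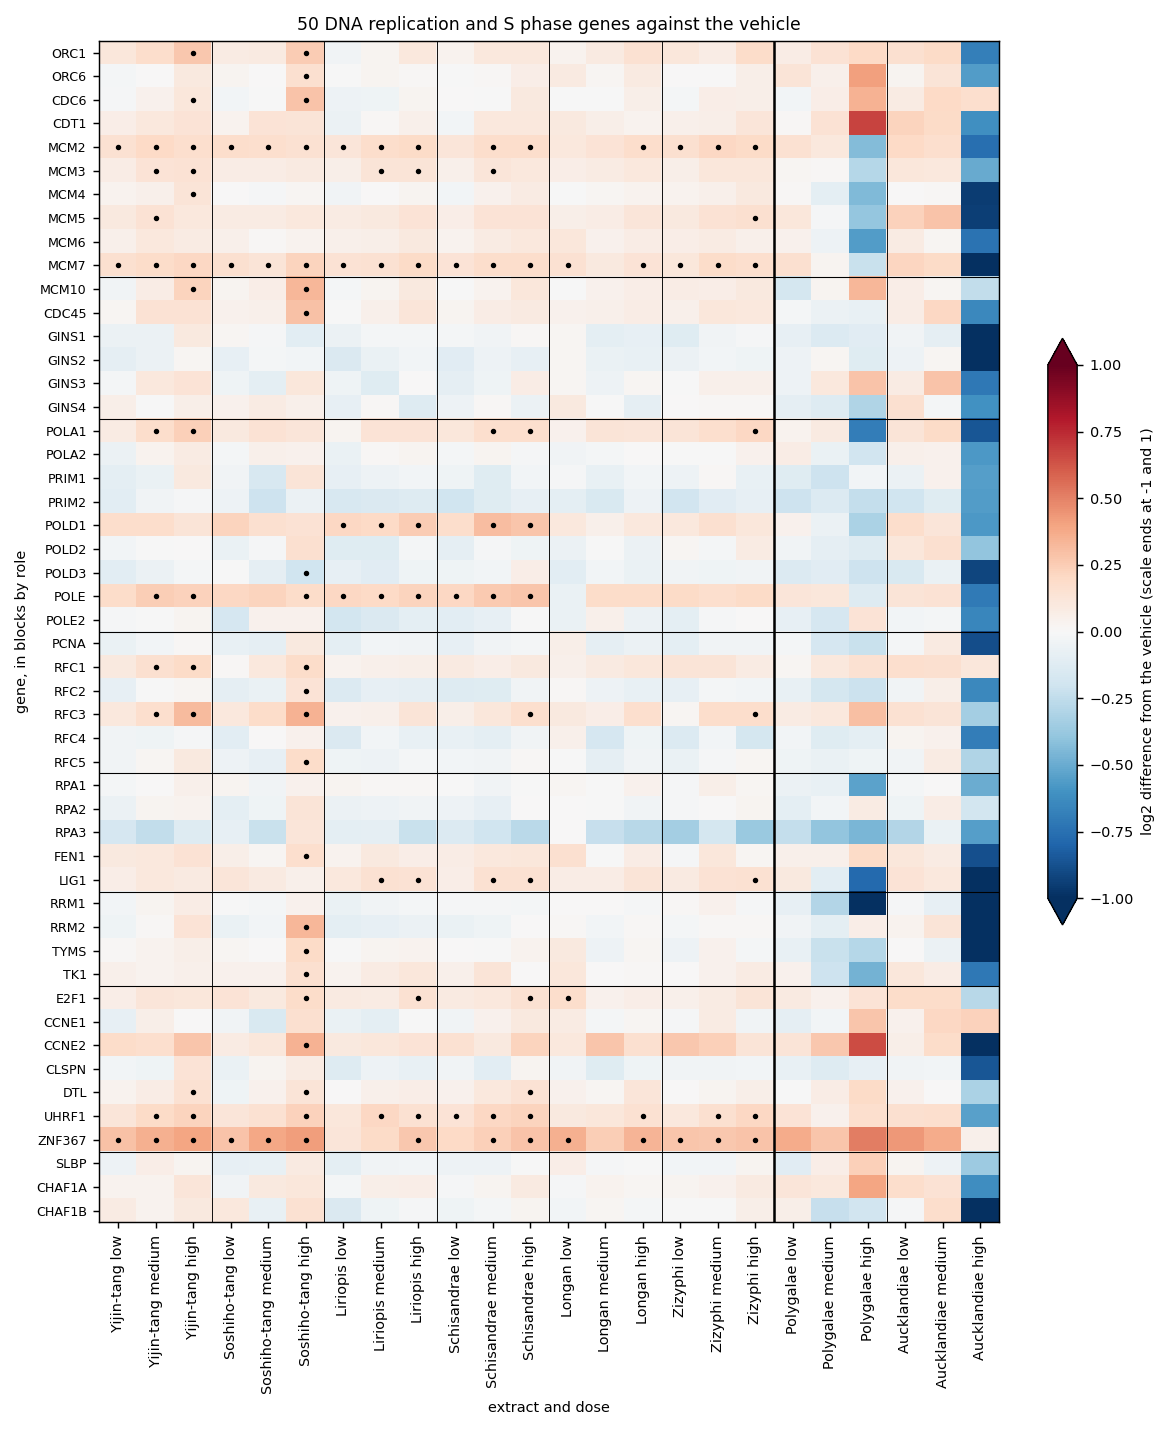
Log2 difference from the vehicle (colour, blue lower and red higher, ending at -1 and 1) for the 50 genes (rows, in blocks by role) at each extract and dose (columns). Black dots mark genes called by edgeR's quasi-likelihood test. Right of the thick line each column is 1 library, without a test. MCM7, MCM2 and ZNF367 carry dots across most columns, and the Aucklandiae Radix high dose is blue for 46 genes.

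Against the vehicle the members rose or did not pass the test, with 1 exception. Over the 18 comparisons with replicated groups edgeR's quasi-likelihood test was used (Benjamini-Hochberg adjusted p under 0.05 over all genes). It called 119 of 900 member tests higher (13.2%) and 1 lower. In the same comparisons 0.38% (Longan Arillus medium dose) to 18.2% (Soshiho-tang high dose) of all genes were called, in either direction. The members' rises were small, from 0.11 to 0.42 on the log2 scale with a median of 0.18, which is 1.08 to 1.33-fold. They were unequally shared: 5 genes (MCM7, MCM2, ZNF367, UHRF1 and POLE) made 66 of the 120 calls, 22 members were never called, and 15 members lay above the vehicle at all 18 extract doses, as did 7.76% of all genes. PRIM2 lay below it at all 18, as did 8.37% of all genes.

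At the high doses 14 of 50 members rose with Yijin-tang, where 6.56% of all genes tested were called, 9 with Liriopis seu Ophiopogonis Tuber (3.98% of all genes), 11 with Schisandrae Fructus (5.4%), 4 with Longan Arillus (1.37%) and 8 with Zizyphi Semen (2.25%). With Soshiho-tang 21 rose and 1 fell, where 18.2% of all genes were called. At the medium doses 10 members rose with Yijin-tang (3.5% of all genes called), 3 with Soshiho-tang (0.909%), 7 with Liriopis seu Ophiopogonis Tuber (4.7%), 9 with Schisandrae Fructus (4.34%) and 4 with Zizyphi Semen (0.558%). With Longan Arillus 0 members were called at the medium dose by edgeR (0.38% of all genes called), 8 were higher and 3 lower at an unadjusted p under 0.05 (13.2% of all genes), and DESeq2 called 3. At the low doses 3 members rose with Yijin-tang (1.53%), 3 with Soshiho-tang (1.27%), 4 with Liriopis seu Ophiopogonis Tuber (5.38%), 3 with Schisandrae Fructus (3.56%), 3 with Longan Arillus (3.64%) and 3 with Zizyphi Semen (0.891%). With the library that stands apart included (54 libraries), the biological coefficient of variation rose from 5.07% to 9.71% and the calls at the high doses fell to 5, 11, 1, 4, 1 and 0 members for Yijin-tang, Soshiho-tang, Liriopis, Schisandrae, Longan and Zizyphi. The calls over all genes were then 1.05%, 7.93%, 0.45%, 0.693%, 0.0829% and 0.16%. Of 110 named calls against the vehicle 40 passed whichever single library of the 2 groups compared was left out, and most of these were MCM7, MCM2 and UHRF1. Vehicle replicate 3 ended 52 named calls when left out, such as ZNF367 with the Liriopis high dose (adjusted p = 0.11) and RFC3 with the Schisandrae high dose (adjusted p = 0.36).

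The origin licensing genes held the 2 most often called members, and at the high doses 6 of 10 rose with Yijin-tang and 5 of 10 with Soshiho-tang. MCM7, a subunit of the MCM2-7 helicase (chromosome 7, 100092728 to 100101940, minus strand, GRCh38, GENCODE release 29), was measured at 379, 364 and 371 CPM in the vehicle libraries. In the 50 extract libraries of replicated groups it ran from 392 over a median of 415 to 446 CPM, so every one of them lay above every vehicle library. It was called higher at 17 of 18 extract doses. The rise was 0.20 ± 0.03 (log2, standard error) with the Yijin-tang high dose (adjusted p = 9.4e-06) and 0.14 ± 0.03 with the Liriopis low dose (adjusted p = 0.0027). With all 54 libraries the first was still called (adjusted p = 0.0035) and the second was not (adjusted p = 0.11). MCM7 was then called at no Longan or Zizyphi dose. MCM2 (chromosome 3, 127598223 to 127622436, plus strand) stood at 226, 227 and 219 CPM in the vehicle and at 236 to 267 CPM, median 252, in the same 50 libraries, again without overlap. Of all genes 0.125% had every one of these libraries above the vehicle range. MCM2 was called at 15 of 18 doses, by 0.17 ± 0.04 with the Yijin-tang high dose (adjusted p = 0.0026). With all 54 libraries it was called at none of them (adjusted p = 0.385 at the Yijin-tang high dose).

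Neither helicase gene passed the test between the high and low dose of any extract. MCM7 differed between high and low dose by -0.02 to 0.06 on the log2 scale over the 6 extracts, and by 0.06 ± 0.04 with Soshiho-tang (adjusted p = 0.31). MCM2 differed between high and low dose by -0.02 to 0.07, and by 0.07 ± 0.04 with Longan Arillus (adjusted p = 0.31). The helicase subunits MCM3 and MCM5 were called at 5 and 2 of 18 doses, and MCM4 at 1. MCM6, the second narrowest member, was never called although 48 of 50 extract libraries lay above the vehicle range of 115 to 116 CPM. With the Yijin-tang high dose MCM6 read 122, 120 and 128 CPM.

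Among the loaders CDC6, ORC1 and ORC6 were called at high doses of the water extracts and CDT1 at none, and the ORC6 call with Soshiho-tang was lost without replicate 3 (adjusted p = 0.17). CDC6, which recruits the helicase to origins (chromosome 17, 40287633 to 40304657, plus strand), read 81.4, 81.0 and 84.2 CPM in the vehicle, 91.1, 85.6 and 92.1 CPM with the Yijin-tang high dose, and 99.5 and 101 CPM with the Soshiho-tang high dose. The Soshiho-tang low dose gave 83.1 and 79.0 CPM, and its medium dose 83.0 and 81.5 CPM. CDC6 thus stepped up between 100 and 500 µg/mL of Soshiho-tang, with no overlap between the high dose and the vehicle or lower doses. It rose by 0.28 ± 0.04 against the vehicle (adjusted p = 1.7e-07) and by 0.31 ± 0.04 against the low dose (adjusted p = 3.1e-07). ORC1, the largest subunit of the origin recognition complex, read 32.4, 32.6 and 34.4 CPM in the vehicle, 42.4, 37.6 and 40.5 CPM with the Yijin-tang high dose, and 42.0 and 37.6 CPM with the Soshiho-tang high dose. It was called at these 2 high doses and no other, by 0.27 ± 0.06 (adjusted p = 0.002) and 0.25 ± 0.06 (adjusted p = 0.003), the second not called without Soshiho-tang high dose replicate 2 (adjusted p = 0.10). CDT1, the partner of CDC6 in loading, was never called and ran from 56.7 to 72.1 CPM in the extract libraries.

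Among the genes that activate the helicase, MCM10 and CDC45 moved and the GINS complex did not pass the test. MCM10, a fork assembly factor, read 36.0, 38.5 and 38.8 CPM in the vehicle, 44.5, 42.3 and 45.8 CPM with the Yijin-tang high dose and 48.8 and 47.0 CPM with the Soshiho-tang high dose, without overlap. It rose by 0.22 ± 0.05 (adjusted p = 0.0045) and 0.34 ± 0.06 (adjusted p = 1.1e-05), and against the low dose of the same extract by 0.26 ± 0.06 with Yijin-tang (adjusted p = 0.018, but 0.48 without replicate 3 of that low dose). CDC45, the cofactor that completes the active helicase, read 48.8, 54.4 and 48.8 CPM in the vehicle and 59.2 and 65.1 CPM with the Soshiho-tang high dose, a rise of 0.29 ± 0.05 (adjusted p = 3.9e-05). None of GINS1, GINS2, GINS3 and GINS4 was called at any of the 18 doses by edgeR, and GINS2 lay below the lowest vehicle library in 25 of 50 extract libraries.

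In each polymerase the catalytic subunit was called higher at some doses, while POLA2, POLD2 and POLE2 were never called against the vehicle and the difference between subunits was not tested. POLA1, the catalytic subunit of polymerase alpha, was called at 5 of 18 doses, and at none of them with all 54 libraries. It read 37.9, 38.0 and 38.0 CPM in the vehicle and 44.5, 46.8 and 44.1 CPM with the Yijin-tang high dose, a rise of 0.24 ± 0.04 (adjusted p = 0.00023). The primase subunit PRIM2 lay below the vehicle at all 18 doses without ever being called, and its partner PRIM1 was never called.

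POLD1, the catalytic subunit of polymerase delta, read 97.0, 86.8 and 87.8 CPM in the vehicle and was called at 5 doses, all of them with Schisandrae or Liriopis. It was highest with the Schisandrae medium dose, at 121, 104 and 114 CPM, a rise of 0.31 ± 0.06 (adjusted p = 0.0006). The Liriopis high dose gave 109, 105 and 112 CPM. Its partner POLD3, an accessory subunit (chromosome 11, 74493851 to 74669117, plus strand), gave the 1 fall among the member tests against the vehicle. POLD3 read 54.4, 57.8 and 59.0 CPM in the vehicle and 48.7 and 51.1 CPM with the Soshiho-tang high dose, a fall of -0.20 ± 0.05 (adjusted p = 0.0018). Without replicate 3, which stood apart in blood cell markers, the difference was -0.24.

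POLE, the leading strand polymerase, was called at 9 of 18 doses, and at none of them with all 54 libraries. Its vehicle libraries differed among themselves. They read 162, 136 and 137 CPM, and the share of counts in ribosomal protein genes in the same libraries was 4.93%, 5.48% and 5.74%. The Longan low dose had both low POLE, at 123, 143 and 151 CPM, and a high ribosomal share, at 5.65%, 5.56% and 5.63%. The Longan high dose gave 168, 168 and 161 CPM of POLE and the 1 member called between Longan doses, with a difference of 0.26 ± 0.06 (adjusted p = 0.0078, with 4.22% of all genes called). MKI67, a proliferation marker with a long message, moved alongside, at 615, 795 and 893 CPM with the Longan low dose and 1160, 1090 and 1050 CPM with the high dose. Without replicate 1 of the low dose POLE was not called (adjusted p = 0.22), nor without replicate 1 of the high dose (adjusted p = 0.051). The rise with the Yijin-tang high dose (0.23 ± 0.06, adjusted p = 0.014) was not called without vehicle replicate 3 (adjusted p = 0.13). Whether RNA composition set these POLE values was not tested.

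In the clamp and its loader 2 of 6 genes rose with the Yijin-tang high dose and 4 of 6 with the Soshiho-tang high dose, but without replicate 3 of the latter RFC3 alone of the 4 kept its call. RFC1 was then not called (adjusted p = 0.051), nor was it without vehicle replicate 1 (adjusted p = 0.087). RFC3 read 66.2, 74.1 and 59.2 CPM in the vehicle, 80.7, 86.1 and 83.3 CPM with the Yijin-tang high dose and 82.1 and 87.4 CPM with the Soshiho-tang high dose. The groups did not overlap, and the rises were 0.32 ± 0.05 (adjusted p = 1.7e-05) and 0.35 ± 0.05 (adjusted p = 3.3e-06). RFC3 was called at 5 doses and RFC1, the large subunit, at 3, while RFC4 was never called. RFC2 and RFC5 rose with the Soshiho-tang high dose by 0.13 ± 0.05 (adjusted p = 0.044, but 0.55 without replicate 3) and 0.18 ± 0.05 (adjusted p = 0.0053, but 0.28 without replicate 3). The clamp itself, PCNA, was called at no dose against the vehicle by edgeR, and it lay between 182 and 206 CPM in the vehicle and between 181 and 224 CPM in the extract libraries.

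Of the single strand binding and Okazaki fragment genes, LIG1, the ligase that seals Okazaki fragments, was called at 5 of 18 doses, each by 0.15 ± 0.04 (Liriopis, Schisandrae and Zizyphi only). With all 54 libraries LIG1 was called at none of them. FEN1, which trims Okazaki fragment flaps, was called at the Soshiho-tang high dose, though not without replicate 3 (adjusted p = 0.42). RPA1, the large subunit of the single strand binding protein, had the narrowest range of group means of the 50 members, 0.09 on the log2 scale. It ran from 111 to 126 CPM over the 50 extract libraries and from 115 to 120 CPM in the vehicle. RPA3, its small subunit, had the third widest range, 0.41. It read 21.2, 22.2 and 20.5 CPM in the vehicle and lay below that in 42 of 50 extract libraries (down to 14.7 CPM), with no call at any dose. In the Soshiho-tang high dose RPA3 read 16.8 CPM in replicate 2 and 28.7 CPM in replicate 3, and in the library left out it read 84.2 CPM, 4.45-fold the median.

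Nucleotide supply genes were called at 1 dose, the Soshiho-tang high dose, where 3 of 4 rose. RRM2, the S phase subunit of ribonucleotide reductase (chromosome 2, 10120698 to 10131419, plus strand), read 283, 289 and 292 CPM in the vehicle, 287 and 265 CPM with the Soshiho-tang low dose and 319 and 409 CPM with the high dose. The difference was 0.33 ± 0.05 against the vehicle (adjusted p = 7.8e-06) and 0.40 ± 0.06 against the low dose (adjusted p = 2.3e-06), but the 409 CPM came from replicate 3. Without replicate 3 RRM2 differed from the vehicle by 0.14 (adjusted p = 0.055) and from the low dose by 0.20 (adjusted p = 0.0075). The Yijin-tang high dose gave 321, 321 and 315 CPM, above every vehicle library, without a call. TYMS, thymidylate synthase, and TK1, thymidine kinase, rose with the Soshiho-tang high dose by 0.19 ± 0.05 (adjusted p = 0.0089) and 0.16 ± 0.05 (adjusted p = 0.0082), neither called without replicate 3 (adjusted p = 0.20 and 0.068), and RRM1, the large subunit, was never called.

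**Figure D2:**
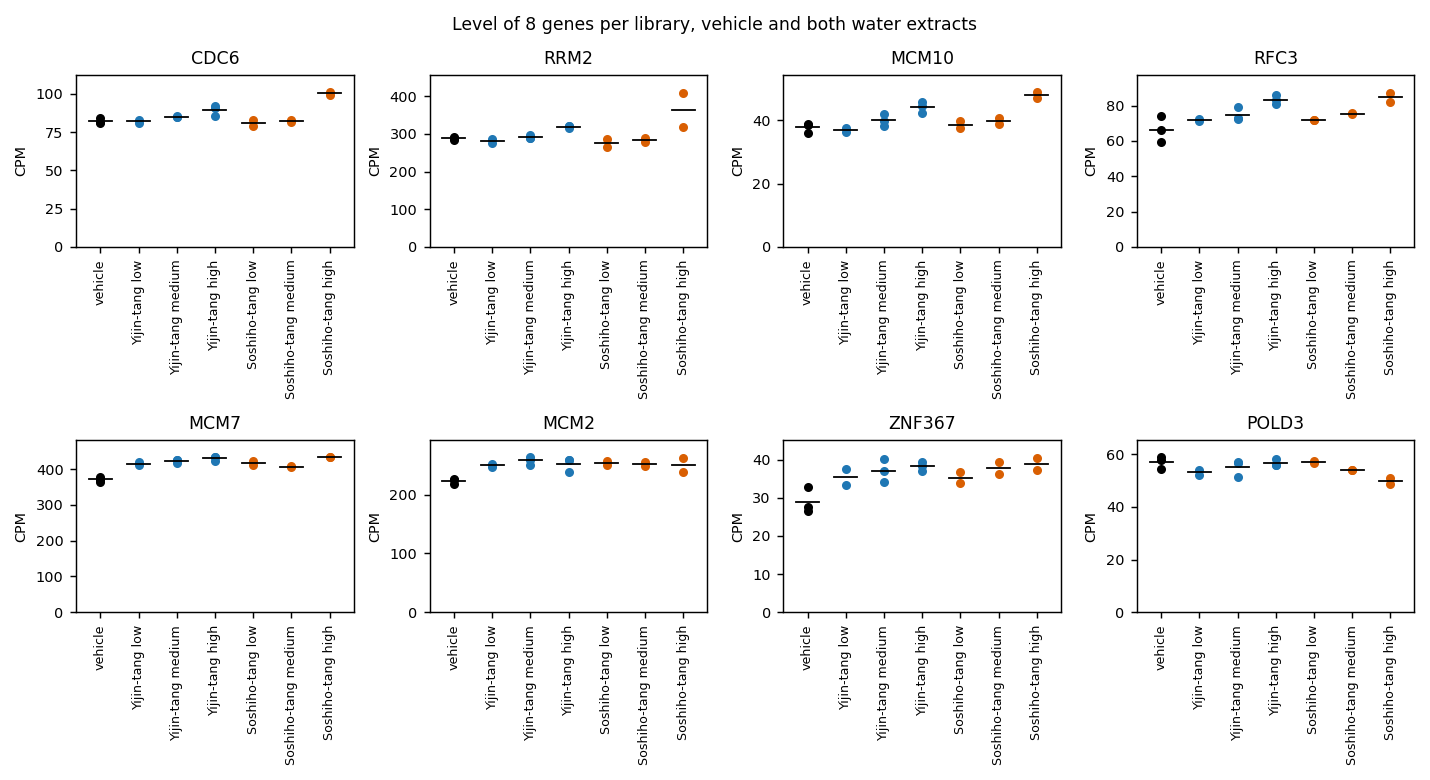
Level (CPM, axis from 0) of 8 genes in each library of the vehicle (black), Yijin-tang (blue) and Soshiho-tang (orange) by dose, with group means as lines, without the library left out of the fit. CDC6 and MCM10 rise at the high doses, MCM7 and MCM2 lie above the vehicle at every dose, and POLD3 is lowest at the Soshiho-tang high dose (48.7 and 51.1 CPM).

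Among the 7 genes of S phase entry and fork control 3 rose with the Yijin-tang and 5 with the Soshiho-tang high dose, and ZNF367 and UHRF1 were called most often. ZNF367, a zinc finger gene known as an E2F target (chromosome 9, 96385941 to 96418329, minus strand; its promoter, shown above, holds a pair of E2F matches), had the widest spread of group means, 0.43 on the log2 scale, and its lowest group was the vehicle. It read 26.4, 32.9 and 27.5 CPM there, 39.3, 38.3 and 37.1 CPM with the Yijin-tang high dose and 40.4 and 37.3 CPM with the Soshiho-tang high dose. The rises were 0.40 ± 0.07 (adjusted p = 0.00012) and 0.42 ± 0.07 (adjusted p = 3.9e-05), and 45 of 50 extract libraries lay above all vehicle libraries. The Yijin-tang high dose call held whichever library of its 2 groups was left out. Without vehicle replicate 3 ZNF367 was not called at the Longan, Schisandrae and Zizyphi high doses (adjusted p = 0.057, 0.067 and 0.10). Between high and low dose it differed by -0.01 to 0.15, and by 0.11 ± 0.07 with Yijin-tang (adjusted p = 0.71). UHRF1, which guides DNA methylation to newly copied DNA, rose at 11 of 18 doses, by 0.23 ± 0.04 with both water extracts at the high dose (adjusted p = 0.00024 for Yijin-tang and 0.00014 for Soshiho-tang, the latter 0.082 without its replicate 2).

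Cyclin E2 (CCNE2) lay above the vehicle mean at all 18 doses and passed the test at 1. It read 10.4, 12.4 and 11.8 CPM in the vehicle and 14.9 and 14.6 CPM with the Soshiho-tang high dose, a rise of 0.35 ± 0.11 (adjusted p = 0.017, but 0.094 without replicate 3). E2F1, the activating transcription factor, was called at 4 doses, and DTL, which helps destroy CDT1 in S phase, at 3. Their calls with the Soshiho-tang high dose were lost without replicate 3 (adjusted p = 0.087 for E2F1 and 0.17 for DTL), so UHRF1 and ZNF367 were the 2 of 5 that kept it. Cyclin E1 (CCNE1) and CLSPN, the fork checkpoint mediator, were never called. The histone supply genes SLBP, CHAF1A and CHAF1B were never called either.

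Between the high and the low dose of Soshiho-tang 13 members rose and 1 fell, where 16.6% of all genes were called, and most of these calls rest on replicate 3 of the high dose. The largest share by role was in the clamp and its loader, where PCNA (0.17 ± 0.05, adjusted p = 0.011), RFC1, RFC2, RFC3 and RFC5 rose, 5 of 6 genes. CDC6, RRM2, MCM10, CDC45, DTL, POLD2, RPA2 and TYMS were the other rises and POLD3 was the fall (-0.19 ± 0.05, adjusted p = 0.0066). Without replicate 3 the count was 6 of 50, near the 7.84% of all genes called then. CDC6, MCM10, RRM2 and POLD3 were the 4 of the 14 that kept their call, and all 5 of the clamp and its loader lost it, such as RFC2 (adjusted p = 0.13), RFC3 (0.10) and RFC5 (0.14). Against the vehicle the count without replicate 3 was 15, where 12.4% of all genes were called, and 11 of the 22 calls were kept. CDC6, MCM10 and RRM2 stayed higher than at the low dose whichever library of these 2 groups was left out, by 0.29, 0.34 and 0.20 without replicate 3. The blood markers of that library are given above, and their part in these counts was not tested.

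Between the high and low doses of the other extracts almost no single member passed the test. The high against low comparison gave 1 member for Yijin-tang (MCM10, with 0.475% of all genes called), 0 for Liriopis (0%), 0 for Schisandrae (0.505%), 1 for Longan (POLE) and 0 for Zizyphi (0.202%) by edgeR. At an unadjusted p under 0.05 there were 12 higher and 0 lower for Liriopis, 12 and 0 for Schisandrae and 4 and 0 for Zizyphi, where 4%, 5.69% and 5.65% of all genes passed in either direction. Longan gave 2 higher and 6 lower (17.5% of all genes). DESeq2 called 2, 0, 1, 2 and 0 members in the same order. The direction was nevertheless broad, as 48, 47, 46 and 41 of 50 members lay higher at the high dose for Yijin-tang, Liriopis, Schisandrae and Zizyphi, by a median of 0.09, 0.06, 0.06 and 0.05 on the log2 scale. The median over all genes tested lay between -0.0015 and 0.001 in those comparisons, where 49.0% to 50.6% of genes were higher. Longan Arillus showed no such lean, with 27 of 50 members higher and a median of 0.004. Members of one list share their libraries, so such a count is a description and not a test.

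**Figure D3:**
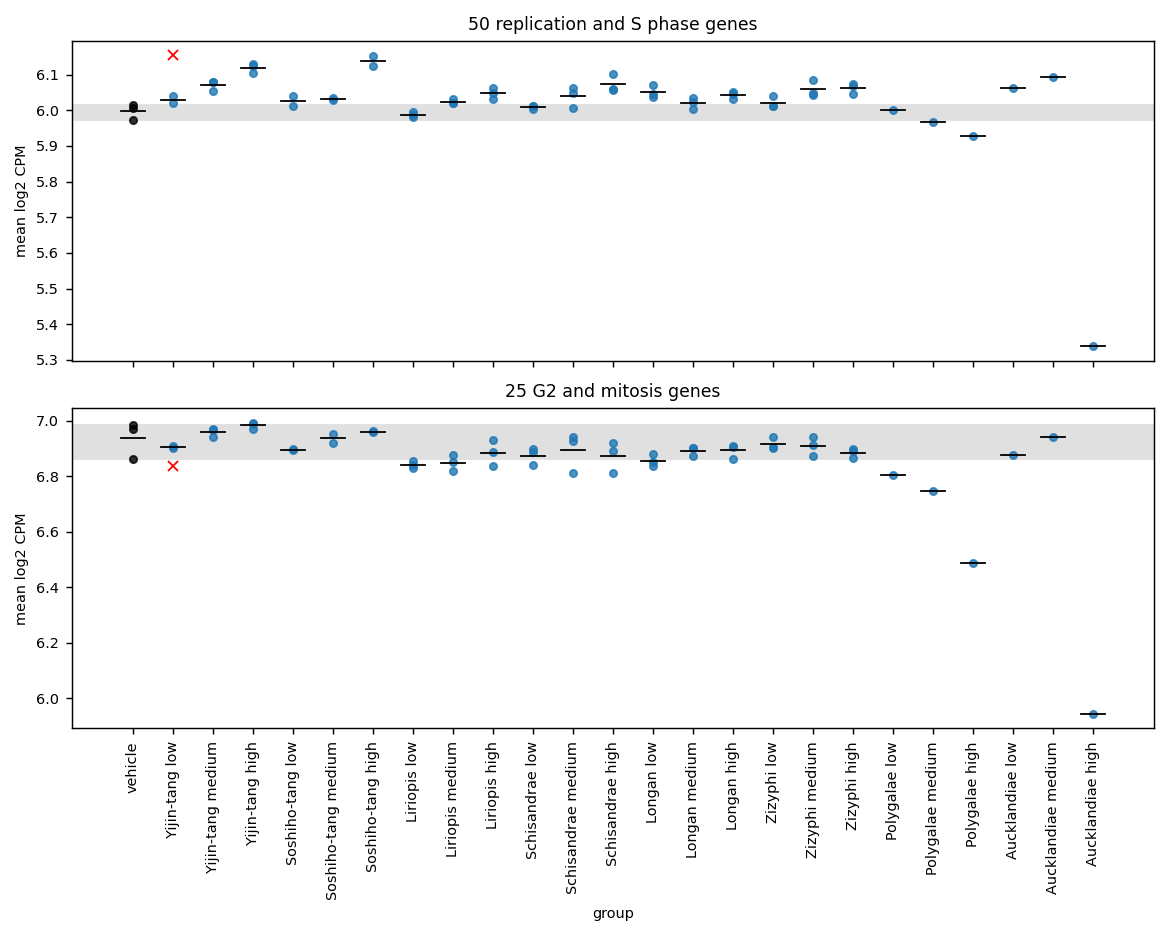
Mean log2 CPM of the 50 members (upper panel) and of 25 G2 and mitosis genes (lower panel) in each library, with group means as lines and the range of the vehicle shaded. The red cross is the library left out of the fit. In the upper panel 39 of 50 extract libraries of replicated groups lie above the vehicle, and in the lower panel 2, where the shaded range is wider. The Aucklandiae Radix high dose lies far below in both.

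Averaged over the 50 members, the log2 level was 6.00 ± 0.02 (SD, n = 3) in the vehicle and 6.12 ± 0.01 (n = 3) with the Yijin-tang high dose. It was lower at that extract's other doses, at 6.07 (medium) and 6.03 (low). Soshiho-tang gave 6.14, 6.03 and 6.03 from high to low dose, Schisandrae 6.07, 6.04 and 6.01, Liriopis 6.05, 6.02 and 5.99, and Zizyphi 6.06, 6.06 and 6.02. Longan gave 6.04, 6.02 and 6.05, with no order by dose. Of the 50 extract libraries 39 lay above the highest vehicle library and 0 below the lowest. The same average over 25 G2 and mitosis genes lay above the vehicle range in 2 of the 50 libraries and below it in 11. The vehicle range was wider for these genes (6.86 to 6.98) than for the members (5.97 to 6.02), so these counts are not on equal terms.

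Extracts that share a library set were compared at the high dose. With Yijin-tang, CDC6 (-0.17 ± 0.04, adjusted p = 0.0019) and RRM2 (-0.19 ± 0.05, adjusted p = 0.012) were lower than with Soshiho-tang, and POLD3 (0.18 ± 0.05, adjusted p = 0.0077) and MCM4 (0.11 ± 0.03, adjusted p = 0.025) were higher, where 11.2% of all genes were called. Without replicate 3 of the Soshiho-tang high dose the RRM2 difference was 0.0035 (adjusted p = 0.99) and CDC6 was not called (-0.15, adjusted p = 0.062). Without that library MCM4 was not called either (0.07, adjusted p = 0.40), which left POLD3 as the 1 call (4.93% of all genes), and POLD3 in turn was not called without replicate 2 (adjusted p = 0.065). Schisandrae against Liriopis gave 0 members by edgeR (0.38% of all genes called), with 1 higher and 1 lower at an unadjusted p under 0.05 (6.17% of all genes). Longan against Zizyphi gave 0 (0.0475%), with 0 higher and 3 lower at an unadjusted p under 0.05 (5.35% of all genes). DESeq2 gave 0 in either.

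Some genes of the same processes outside the 50 members were called higher at the high doses of the water extracts too. With Soshiho-tang part of these calls rest on replicate 3, as given below. For each list below, 6.56% of all genes were called with Yijin-tang and 18.2% with Soshiho-tang, in either direction. Of 27 other replication genes 9 rose and 1 fell with Yijin-tang, and 11 rose with Soshiho-tang. Among them were TOPBP1, a replication initiation factor (0.23 ± 0.04, adjusted p = 0.00041, with Yijin-tang), and the helicase RECQL4 (0.30 ± 0.06, adjusted p = 0.0001, with Soshiho-tang). Of 19 other E2F targets and repair genes 9 rose with Yijin-tang and 8 with Soshiho-tang, led by RBL1, a pocket protein that restrains E2F, which rose by 0.52 ± 0.06 (adjusted p = 3e-07) and 0.36 ± 0.07 (adjusted p = 0.00016). RBL1 read 28.9, 38.5 and 32.9 CPM in the vehicle and 46.9, 49.3 and 48.1 CPM with the Yijin-tang high dose. Of 14 other nucleotide and chromatin supply genes 4 rose with Yijin-tang and 5 rose and 1 fell with Soshiho-tang, with the chromatin factor ATAD2 among them (0.24 ± 0.04, adjusted p = 0.00023, with Yijin-tang). Without replicate 3 the Soshiho-tang high dose holds 1 library, and fewer genes of each of these 3 lists were then called higher. Most of the rises among the E2F targets and repair genes were lost, while RECQL4 and RBL1 stayed higher.

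In calls against the vehicle the G2 and mitosis genes showed another pattern. Of 25 genes 3 rose and 1 fell with the Yijin-tang high dose (6.56% of all genes called), and 1 rose and 1 fell with Soshiho-tang (18.2%). At the high doses of Liriopis (3.98%), Longan (1.37%) and Zizyphi (2.25%) 1 fell with each. With the Schisandrae high dose (5.4% of all genes called) 7 of 25 fell, among them PTTG1, the securin (-0.33 ± 0.08, adjusted p = 0.011), and cyclin B2 (CCNB2, -0.22 ± 0.06, adjusted p = 0.015), while 11 replication members rose. With the Liriopis low dose (5.38% of all genes called) 7 of 25 fell as well, led by the ubiquitin enzyme UBE2C (-0.28 ± 0.05, adjusted p = 0.0014). Between doses a lean like that of the members was seen in part of the extracts. The mean log2 level was higher at the high than the low dose of Yijin-tang (6.98 against 6.91) and Soshiho-tang (6.96 against 6.90). The same held for Liriopis (6.88 against 6.84) and Longan (6.89 against 6.86). It was equal with Schisandrae (6.875 at both) and lower with Zizyphi (6.88 against 6.92).

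Of 12 regulators upstream of S phase (D cyclins, their kinases, MYC and CDK inhibitors) 1 rose and 2 fell with the Yijin-tang high dose (6.56% of all genes called), and 4 rose and 2 fell with the Soshiho-tang high dose (18.2%). With Yijin-tang these were CDK6, a partner of the D cyclins (0.26 ± 0.06, adjusted p = 0.0041), and, lower, MYC and GADD45A. With Soshiho-tang CDKN1A, CDK6 (0.46 ± 0.06), CCND3 and CDKN2B rose and CCND1 and CDKN1C (-1.18 ± 0.20) fell. At the other high doses CDK6 rose with Schisandrae, MYC fell with Longan, CDKN1C fell with Zizyphi and 0 of the 12 were called with Liriopis by edgeR. CDKN1A, the CDK inhibitor p21, read 11.9, 10.6 and 10.7 CPM in the vehicle and 17.4 and 21.7 CPM with the Soshiho-tang high dose, the dose with most members higher, a rise of 0.83 ± 0.08 (adjusted p = 1.7e-10). It was called at no other dose. Without replicate 3 CDKN1A, CDK6 and CDKN1C were still called at that dose, and CCND3 (adjusted p = 0.215), CDKN2B (0.083) and CCND1, cyclin D1 (0.15), were not. MYC lay below the vehicle at all 18 doses and fell at 11 of them. It read 323, 342 and 380 CPM in the vehicle and 283, 271 and 263 CPM with the Yijin-tang high dose, a fall of -0.36 ± 0.07 (adjusted p = 0.00041).

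**Figure D4:**
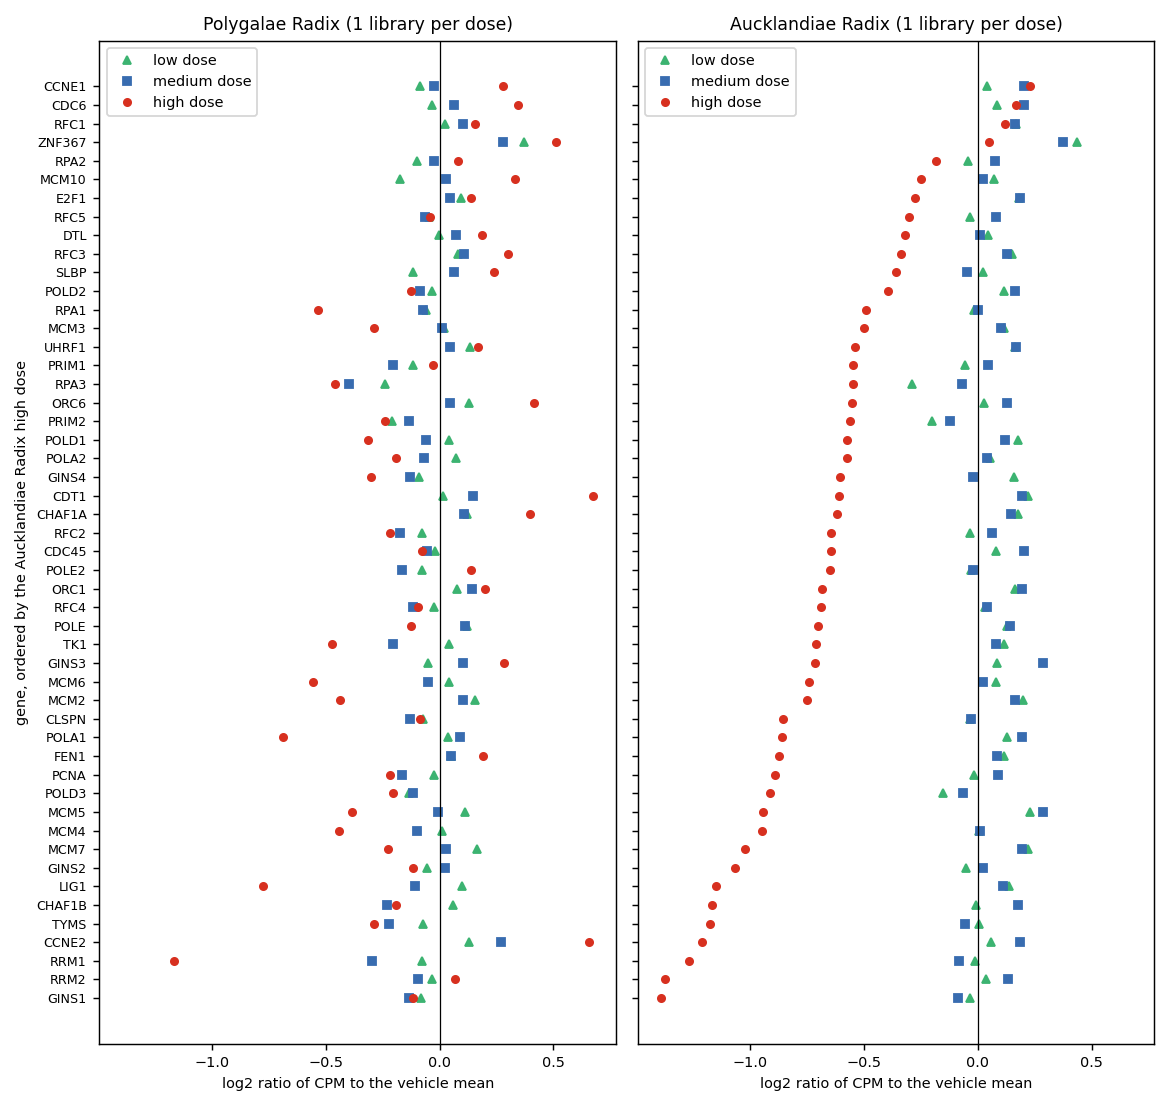
Log2 ratio of CPM to the vehicle mean for the 50 genes (rows, ordered by the Aucklandiae Radix high dose) in the single libraries of Polygalae Radix (left) and Aucklandiae Radix (right) at 3 doses. The Aucklandiae high dose (red) reaches -1.39 for GINS1, while its low dose (green) runs from -0.29 for RPA3 to 0.44 for ZNF367. The Polygalae high dose runs from -1.16 for RRM1 to 0.67 for CDT1.

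Aucklandiae Radix at 370 µg/mL had the lowest replication messages of the 25 groups, with a mean log2 level over the members of 5.34 against 5.93 to 6.14 in the others. It was 1 library, so there is no replicate check and no test, and intervals cover counting error only. Of 50 members 29 lay more than 1.5-fold below the vehicle mean and 0 more than 1.5-fold above it, where 27.8% of all genes passed 1.5-fold in either direction. 46 members lay below the lowest vehicle library and 3 above the highest, where 41% and 39.4% of all genes did. With the Aucklandiae high dose the median member stood at -0.65 on the log2 scale against -0.02 for all genes tested. Nucleotide supply was the lowest role, with a median of -1.22: RRM2 read 111 CPM (95% Poisson interval 107 to 115) against 283 to 292 CPM in the vehicle, RRM1 102 CPM (97.6 to 106) against a vehicle mean of 246 CPM, and TYMS 56.1 CPM (53.2 to 59.3) against 128 CPM. The helicase cofactor GINS1 had the lowest ratio at -1.39, and MCM7 read 182 CPM (177 to 188) against 364 to 379 CPM.

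A few members were not lower in that library. CDC6 read 92.2 CPM (88.4 to 96.2) against 81.0 to 84.2 CPM in the vehicle, CCNE1 25.0 CPM (23.0 to 27.1) against a mean of 21.2 CPM, and RFC1 98.5 CPM (94.5 to 103) against 90.8 CPM. ZNF367 read 29.9 CPM (27.7 to 32.2), within the vehicle range. The G2 and mitosis genes were lower still, with a median of -1.03 and 20 of 25 more than 1.5-fold below, where 14.9% of all genes lay that far below. CDKN1A read 99.6 CPM in this library against 10.6 to 11.9 CPM in the vehicle. The epithelial keratin KRT20, named after its value was seen, had its highest level of all libraries, 714 CPM against a median of 233 CPM. Other epithelial markers are not given for this library, and what sets these levels was not tested.

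At 74 and 14.8 µg/mL of Aucklandiae Radix no member passed 1.5-fold at either dose, where 2.57% and 1.51% of all genes did. At the medium dose 29 of 50 members lay above the highest vehicle library and 3 below the lowest, where 28.3% and 26.8% of all genes did, and MCM7 read 424 CPM and RRM2 315 CPM. The low values were thus those of the 370 µg/mL library alone among these 3 libraries.

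With Polygalae Radix at 380 µg/mL, also 1 library, 5 of 50 members passed 1.5-fold, where 6.99% of all genes passed in either direction. RRM1 (109 CPM, interval 105 to 113, against 246 CPM), LIG1 (64.9 against 112 CPM) and POLA1 (23.4 against 37.9 CPM) lay more than 1.5-fold below the vehicle mean. CDT1 (97.3 CPM, interval 93.7 to 101, against 60.9 CPM) and CCNE2 (18.5 against 11.5 CPM) lay more than 1.5-fold above it. Of the 50 members 27 lay below the vehicle range and 19 above it, where 33.8% and 33.9% of all genes did. Among the licensing genes MCM2, MCM3, MCM4, MCM5, MCM6 and MCM7 all stood below the vehicle mean, MCM6 at -0.56 and MCM7 at -0.22, and CDC6 (0.35), ORC6 (0.41) and ORC1 (0.20) above it. ZNF367 read 41.4 CPM, and the G2 and mitosis genes had a median of -0.42. At 76 and 15.2 µg/mL no member passed 1.5-fold, where 2.49% and 1.91% of all genes did, and RRM1 read 200 and 233 CPM.

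16 members share exon bases with another protein-coding gene in GENCODE release 29, and whether the authors' counting used strand is not given in the sources used here. TYMS shares 39.1% of its exon bases with ENOSF1 on the other strand, CCNE2 37% with INTS8, and MCM7 8.94% with AP4M1. POLA2 shares 35.1% and RRM2 20.2% with a gene on the same strand. PCNA and RRM2 also have processed pseudogenes, between which expected counts split reads.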

How the data were processed

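HT29 messenger RNA was sequenced in 60 libraries of 25 groups with a directional kit and 100 bp paired reads, per the labels' protocols. RSEM 1.3.3, STAR 2.7.3a, Trim Galore 0.6.5, FastQC 0.11.9 and GRCh38 are named in the submitters' processing notes. What the authors deposited is a single table of unnormalized expected counts for 60675 genes. Per the series text, samples with too little RNA were excluded before deposit. Of the deposited values 89.9% lay within 1e-09 of a whole number. The annotation release and the use of strand in counting are not given in the sources used here. Wortmannin, named in the series text, is not analysed here.

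The 50 members, the related gene lists and the tests were chosen with earlier results of these data known, and so was the choice to leave out replicate 2 of the Yijin-tang low dose. Expected counts were rounded. In R 4.3.3 with edgeR 4.0.16, filterByExpr kept 16835 genes. A quasi-likelihood model with the group as its term and TMM scaling was fitted to 53 libraries of 19 groups. Tests are two-sided, with Benjamini-Hochberg adjustment over all genes within each of 27 comparisons, and calls are at adjusted p under 0.05. CPM uses TMM library sizes. Average levels are means of log2 CPM with a prior count of 2. Single libraries are given as log2 ratios to the vehicle mean with 0.5 CPM added. The model was run on simulated counts with known changes larger than the median rise called here, at a single spread for all genes. That run checks the code and does not cover rises so small.

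Members named in each comparison are up to 3 called genes per role with the smallest p. Library values are given for the 10 members with the widest and the 2 with the narrowest range of group means, and for others that a result turns on. From the related lists up to 2 called genes with the smallest p were taken, and CDKN1A, CCND1 and MYC. Not every gene the rule drew is named, and MKI67, KRT20 and some members were named after their values were seen. Alternatives were DESeq2 1.42.0, RLE scaling, no filter on low counts, a replicate block, all 54 libraries, both libraries that stand apart left out, each library left out in turn, another prior count (0.5), a median over members and a 2-fold limit. With each library left out, only the comparisons of its own group were tested. The labels give no meaning to replicate numbers. Deviations of same-numbered libraries correlated above 0.1 in all 3 pairs in 2 of 27 comparisons, Schisandrae medium dose against vehicle (0.319 to 0.636) and Schisandrae high against low dose (0.131 to 0.261), where a replicate block gave 10 calls in place of 9 and 0 in place of 0. Promoters and their sequences are from RefSeq (GRCh38.p14), and gene positions from GENCODE release 29.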

Additional observations from a re-analysis of the deposited data

How the results depend on the processing

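The counts depend most on the Yijin-tang low dose replicate 2 and, among the others, on vehicle replicate 3, which ended 52 named calls when left out. Counts in this section are given without the share of all genes called, which is given above for the high doses with all 54 libraries. They describe how the counts move with the setting and are not read as results about the members. With all 54 libraries the members called against the vehicle were 5, 11, 1, 4, 1 and 0 at the high doses (Yijin-tang, Soshiho-tang, Liriopis, Schisandrae, Longan, Zizyphi). They were 2, 1, 0, 2, 0 and 0 at the medium and 10, 0, 0, 0, 1 and 0 at the low doses, and 17, 6 and 0 for high against low dose of Yijin-tang, Soshiho-tang and Longan, and 0 for Yijin-tang against Soshiho-tang. The 10 and 17 calls are in comparisons of the Yijin-tang low dose, the group that holds the library left out of the main fit. MCM2 at the Yijin-tang low dose then changed sign to -0.016. With that library in, MCM2, MCM3, POLE, POLA1, LIG1 and ORC1 were called at no dose against the vehicle. Of 128 named member and comparison pairs 37 kept their call with all 54 libraries, 90 lost it and 1 turned. With both libraries that stand apart left out, 110 kept it, 17 lost it and 1 turned (RRM2, Yijin-tang against Soshiho-tang, 0.0035). That setting gave 7 members for the Longan high, 5 for the Soshiho-tang medium, 1 for the Longan medium and 5 for the Schisandrae low dose, and 3, 6 and 1 for Yijin-tang high against low, Soshiho-tang high against low and Yijin-tang against Soshiho-tang.

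DESeq2 and RLE scaling left the direction and call of all 128 pairs as they were. DESeq2 counts differed by over 1.5 times for Soshiho-tang (6), Longan (3) and Zizyphi (9) at the medium dose, Schisandrae (5) and Longan (6) at the low dose, and high against low dose of Yijin-tang (2), Schisandrae (1) and Longan (2). Without a filter on low counts 45 of 128 pairs lost their call. Counts were then 5 for the Liriopis high dose, 6, 4 and 2 for Yijin-tang, Liriopis and Longan at the medium and 1, 2 and 1 at the low dose, 9 and 2 for Soshiho-tang and Longan high against low, and 2 for Yijin-tang against Soshiho-tang. The replicate block changed no named call and moved 1 count by over 1.5 times (Longan low dose, 5). At 2-fold 1 member passed with the Polygalae and 9 with the Aucklandiae high dose. A median over members in place of the mean gave differences from the vehicle of 0.164 for Soshiho-tang, 0.114 for Zizyphi and -0.476 for Aucklandiae at the high dose, and 0.057 for Polygalae, where the mean gave -0.071.

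Leaving out each library in turn gave, against the vehicle in the same order of extracts, 10 to 14, 15 to 23, 3 to 7, 4 to 10, 0 to 5 and 4 to 7 members at the high doses, 4 to 8, 0 to 5, 3 to 7, 5 to 9, 0 to 4 and 2 to 5 at the medium and 0 to 5, 0 to 5, 1 to 9, 0 to 8, 1 to 6 and 0 to 4 at the low doses. High against low dose gave 0 to 1, 6 to 18, 0 to 0, 0 to 0, 0 to 1 and 0 to 0, and extract against extract 1 to 13, 0 to 0 and 0 to 0. Of the refits of named pairs 465 kept the call, 247 lost it and 1 turned: RRM2, Yijin-tang against Soshiho-tang, ran from -0.36 to 0.0035. A group of 2 libraries then has 1, which is assumed to vary like the other groups. The cause of these changes was not tested.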
